A study of Mus musculus with 19 samples.

Results

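The Hox genes encode homeodomain transcription factors that lie in 4 clusters, Hoxa, Hoxb, Hoxc and Hoxd. Within a cluster all genes point the same way, and their order along the chromosome matches the order in which they are switched on in time and along the head-to-tail axis of the embryo. Genes with the same number in different clusters are paralogues, with low numbers used anteriorly and high numbers posteriorly. Pbx, Meis and Pknox proteins are DNA-binding partners of Hox proteins, retinoic acid and Cdx factors switch the clusters on, and polycomb and trithorax complexes keep them off and on. In the yolk sac, Hox genes are known from the mesoderm and from blood progenitors, while the yolk sac endoderm is an absorptive epithelium outside the embryonic axis.

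The members were taken by symbol, as every gene named Hoxa, Hoxb, Hoxc or Hoxd with a number, which gave 39 of the 23337 gene symbols in the count table. There were 11 Hoxa, 10 Hoxb, 9 Hoxc and 9 Hoxd genes, of which 8 belonged to the anterior (numbers 1 to 3), 15 to the central (4 to 8) and 16 to the posterior class (9 to 13). Where a gene had more than 1 transcript row, the row with the highest mean count stood for it. The clusters were found on chromosome 6 from 52155367 to 52260880 (Hoxa), chromosome 11 from 96194316 to 96368254 (Hoxb), chromosome 15 from 102921131 to 103036856 (Hoxc) and chromosome 2 from 74668225 to 74765142 (Hoxd) of the mm10 mouse genome. Hoxa genes lie on the minus strand and the others on the plus strand.

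The study asked whether cystic embryoid bodies (EBs), hollow aggregates differentiated from embryonic stem (ES) cells, resemble the extra-embryonic endoderm of the mouse visceral yolk sac (VYS). RNA was sequenced from yolk sac endoderm (ysE) at embryonic day E9.25 (2 libraries, A and B) and E12.5 (1 library), from VYS mesoderm at E9.25 (2 libraries), from fetal liver at E12.5 (2 libraries) and from cystic EBs (4 libraries). All tissues came from FVB mice with whole litters pooled per sample. The EBs were untreated and came from 2 F1 ES cell clones of C57BL/6 and 129 origin, A9 (male, libraries d10 A and d15 A) and JN (female, libraries d10 B and d15 B), at day 10 and day 15 of differentiation, so each clone is a single line. The dUTP kit was used for E9.25 ysE, mesoderm and clone JN, the ScriptSeq kit for liver and clone A9, and a non-stranded kit for E12.5 ysE, so kit and clone cannot be told apart, and neither can kit and tissue for liver and E12.5 ysE. Whole genome bisulfite sequencing (WGBS) of CAST/EiJ and FVB crosses in both directions, named CxF and FxC, covered E12.5 ysE, E12.5 liver and d15 cystic EBs with 1 library each per cross, the EBs being ES clones CF-C2 and FC-A2. Histone H3 lysine 4 trimethylation (H3K4me3), a mark of active and poised promoters, was mapped in 1 pool of 20 whole E12.5 VYS from 2 litters.

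The count table held 40453779 to 169981821 reads per library. The summed level of 6 yolk sac endoderm markers (Afp, Ttr, Amn, Cubn, Apoa4, Rbp4) was 9373 and 10593 RPKM (reads scaled for transcript length and library size) in E9.25 ysE, 41672.5 in E12.5 ysE, 1041 and 1837 in VYS mesoderm and 116 to 1176 in cystic EBs. Markers of erythroid cells summed to 34200 and 43896 RPKM in the mesoderm libraries, which therefore held blood, against 852 and 1020 in E9.25 ysE. Markers of extra-embryonic and smooth muscle mesoderm summed to 423 and 627 RPKM in the mesoderm, 17.0 and 21.8 in E9.25 ysE and 7.13 in E12.5 ysE. Pluripotency markers summed to 89.5 to 181 RPKM in cystic EBs and at most 5.65 elsewhere. Endothelial markers summed to 157 and 172 RPKM in the mesoderm and at most 53.1 elsewhere, mesothelial markers to 41.6 and 46.3 against at most 6.84, and haematopoietic and myeloid markers to 52.7 and 56.7 against at most 44.5. Hindgut or definitive endoderm markers summed to 17.5 to 24.8 RPKM in ysE and EBs and at most 5.17 in mesoderm and liver. The sums were alike through different genes. In ysE they were mostly Foxa2 (13.2, 14.5 and 22.6 RPKM) and Cdx2, with Sox17 at most 0.358 and Pyy at most 0.017. EBs had Sox17 at 5.37 to 12.4 RPKM and Pyy at 0 to 3.10. The part of these cell types in the Hox levels was not tested. In these bulk samples, fewer cells with a transcript and less of it per cell cannot be told apart.

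In sum, Hox transcripts were scarce in yolk sac endoderm and most abundant in VYS mesoderm, there largely through Hoxc8. Summed over the 39 genes, the level was 3.78 and 4.57 RPKM in E9.25 ysE, 9.15 in E12.5 ysE, 43.4 and 34.6 for the mesoderm libraries and 17.7 and 4.61 for liver. For cystic EBs it was 28.9 RPKM at d10 and 21.5 at d15 with clone A9, but 3.97 and 8.22 with clone JN. In this sum mesoderm libraries thus lay above all others, A9 EBs came next, and JN EBs, ysE and liver library B fell in an overlapping low range. The rank of mesoderm rested on Hoxc8, at 17.8 and 20.1 RPKM there. With Hoxc8 set aside, the mesoderm libraries would not both lie above the A9 EBs. The leading cluster differed, with Hoxc holding 54.2% and 69.2% of the summed level in mesoderm, Hoxb 61.9% and 58.3% in liver, and Hoxd 68.6% in E12.5 ysE. The clusters were closer elsewhere, between 19.5% and 36.3% each for ysE at E9.25 and between 11.9% and 40.1% each in EBs.

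**Figure D1:**
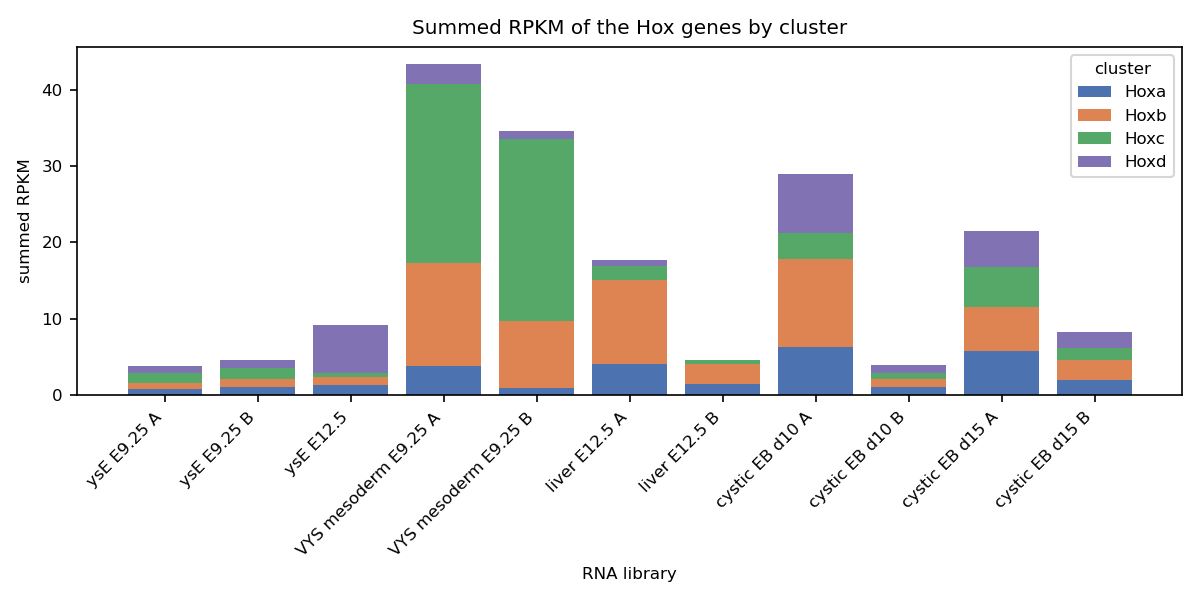
Summed RPKM of the Hox genes in each of the 11 RNA libraries, stacked by cluster. Mesoderm libraries reach 43.4 and 34.6 RPKM, mostly Hoxc, while E9.25 ysE stays at 3.78 and 4.57.

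Counted per gene, a mean of at least 1 RPKM was reached by 0 of 39 members in E9.25 ysE, by 1 in E12.5 ysE (Hoxd8), by 8 in mesoderm (Hoxb2, Hoxb4, Hoxb6, Hoxb7, Hoxc6, Hoxc8, Hoxc13, Hoxd8), by 2 in liver (Hoxb2, Hoxb4) and by 2 in cystic EBs (Hoxb2, Hoxd8). With the clones apart, 6 members reached it in A9 EBs (Hoxa10, Hoxa13, Hoxb2, Hoxb4, Hoxc8, Hoxd8) and 0 in JN EBs. The plot of the members by library shows the highest mesoderm levels at Hoxc8 and Hoxb2, and the nearly empty posterior ends of Hoxc and Hoxd in liver.

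**Figure D2:**
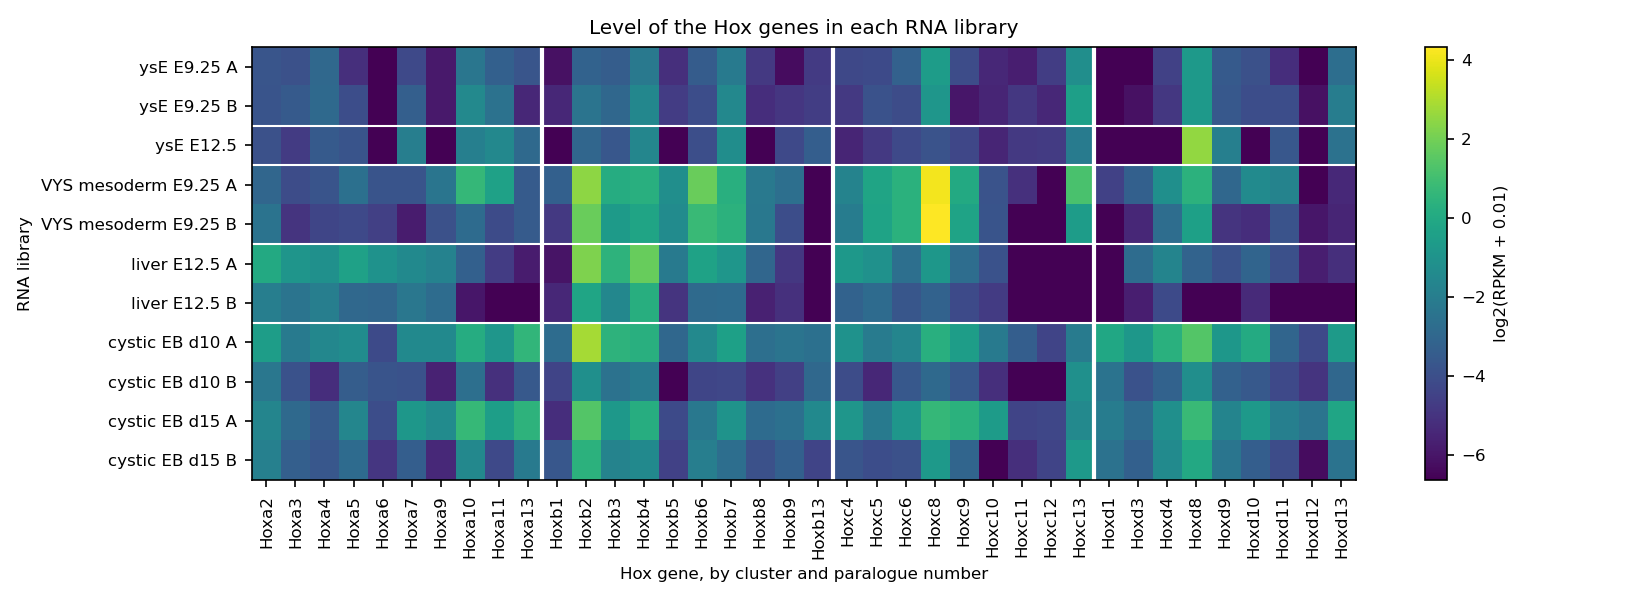
Level of 38 of the 39 Hox genes (columns, by cluster and number) in each RNA library (rows), as log2(RPKM + 0.01), from dark (low) to yellow (high). Hoxc8 in both mesoderm libraries (17.8 and 20.1 RPKM) is brightest, and Hoxd8 stands out in E12.5 ysE (5.78 RPKM).

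Among the highest members of each cluster, by the mean over the groups, were Hoxa10 and Hoxa2, Hoxb2, Hoxb4 and Hoxb6, Hoxc8, Hoxc13 and Hoxc6, and Hoxd8, Hoxd4 and Hoxd13. Hoxa10, a limb and uterus gene, was at 0.190, 0.348 and 0.258 RPKM in the ysE libraries, 1.57 and 0.131 for mesoderm, 0.092 and 0.006 for liver, 1.11 and 1.63 in A9 EBs and 0.153 and 0.336 in JN EBs. Hoxa2, a hindbrain and branchial arch gene, was at 0.065, 0.063 and 0.055 RPKM in ysE, 0.114 and 0.169 for mesoderm, 1.002 and 0.249 for liver, 0.677 and 0.312 in A9 EBs and 0.191 and 0.264 in JN EBs. Every library outside ysE was above the 3 ysE libraries for Hoxa2, while Hoxa10 overlapped between ysE, mesoderm and JN EBs.

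Hoxc6, a thoracic gene, was at 0.095, 0.049 and 0.044 RPKM in ysE, 1.28 and 1.29 for mesoderm, 0.152 and 0.066 for liver, 0.308 and 0.538 in A9 EBs and 0.071 and 0.056 in JN EBs, so mesoderm stood above all other libraries. Hoxd4, a gene of the hindbrain and neck, was at 0.033, 0.024 and 0 RPKM in ysE, 0.429 and 0.143 for mesoderm, 0.301 and 0.046 for liver, 1.24 and 0.430 in A9 EBs and 0.098 and 0.369 in JN EBs. Mesoderm, liver and JN EBs overlapped for Hoxd4, and ysE was below all of them. Hoxb4 was at 1.19 and 0.835 RPKM in mesoderm, 1.22 and 1.14 in A9 EBs and 0.217 and 0.364 in JN EBs, and its liver and ysE levels are given with the liver comparisons. Hoxa13, the posterior end of Hoxa, was at 0.064, 0.013 and 0.124 RPKM in ysE, 0.080 in both mesoderm libraries and 0.008 and 0 in liver.

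In yolk sac endoderm, the 3 highest members at E9.25 were Hoxc8 (0.665 and 0.537 RPKM), Hoxd8 (0.576 and 0.580) and Hoxc13 (0.423 and 0.718). None of them exceeded 1 RPKM in either library. Hoxd8, a central Hoxd gene, was at 5.78 RPKM in the E12.5 ysE library, 63.2% of its summed Hox level, and rested on 355 reads. That value lay above every other library, since Hoxd8 was at 1.30 and 0.734 RPKM in mesoderm, 0.101 and 0 in liver, 2.61 and 1.73 in A9 EBs and 0.421 and 0.974 in JN EBs. Its fitted log2 difference between E12.5 and E9.25 ysE was 3.24 ± 1.15 (SE), with adjusted p = 0.114, and it was not called. Against cystic EBs the log2 difference (EB minus E12.5 ysE) was -2.38 ± 0.95, with adjusted p = 0.0726. The E12.5 group has 1 library, which the fit assumes to vary like the libraries of the other groups, so these SEs and p-values hold no spread of its own, and stage cannot be told apart from library kit. The Hoxd8 promoter is shown because it belongs to the member that led in E12.5 ysE, with its CpG dinucleotides in capitals (RefSeq, GRCm38.p6, plus strand, chr2:74704365-74704664, 250 bases before to 50 after the start).
Hoxd8: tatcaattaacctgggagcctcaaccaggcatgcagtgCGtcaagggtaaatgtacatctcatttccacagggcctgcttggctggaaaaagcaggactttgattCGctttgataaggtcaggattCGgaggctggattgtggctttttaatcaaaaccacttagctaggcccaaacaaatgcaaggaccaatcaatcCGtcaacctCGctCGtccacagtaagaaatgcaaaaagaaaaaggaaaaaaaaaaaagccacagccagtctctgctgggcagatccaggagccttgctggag

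The change from E9.25 to E12.5 ysE gave 0 called members of 37 tested at a 5% false discovery rate (FDR), against 3.90% of all transcripts called higher and 4.57% called lower at E12.5. At an unadjusted p under 0.05 there was 1 member (Hoxd8), beside 25.5% of all transcripts, and DESeq2 called 1 higher, beside 6.72%. A fit of only these 3 libraries called 4 higher and 2 lower of 27 members tested, where 25.1% of all transcripts were higher and 25.2% lower. Cystic EBs against E12.5 ysE, at a 1% FDR, also gave 0 called members of 37 tested, where 23.3% of all transcripts were called in either direction. Here 4 members had an unadjusted p under 0.05, beside 49.3% of all transcripts, and DESeq2 called 2 higher, beside 14.9%. Hoxc11 and Hoxc12 were too low in all libraries to pass the count filter in these fits.

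At E9.25, the VYS mesoderm and the endoderm lying on it were compared with the same kit and stage. Of 37 members tested, 7 were higher in mesoderm (among them Hoxb2, Hoxb6, Hoxc6, Hoxc8 and Hoxc9) and 1 was lower (Hoxd13), with 16.9% of all transcripts tested called higher and 13.7% lower. The share of members called higher was thus close to the background, and the share lower was below it. By cluster, 4 of the 7 tested Hoxc genes were higher. The median log2 difference of the members tested was 1.99 against 0.05 for all transcripts.

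Hoxc8, which patterns the thoracic axis, was at 17.8 and 20.1 RPKM in mesoderm and at 0.665 and 0.537 in ysE, and it alone made up 48.6% of the mean mesoderm Hox level. Its log2 difference was 4.66 ± 1.11 (adjusted p = 0.0114). Hoxb6, a central Hoxb gene known from lateral and limb mesoderm, had the largest called difference, with 3.55 and 1.72 RPKM in mesoderm against 0.082 and 0.051 in ysE and a log2 value of 4.97 ± 1.12 (adjusted p = 0.00876). Both mesoderm libraries were above both ysE libraries for 22 of the 37 members tested, the 7 called genes among them, and for 39.2% of all transcripts. Hoxc9, the first posterior gene of its cluster, was at 1.004 and 0.804 RPKM against 0.049 and 0.006, a log2 difference of 4.75 ± 1.55 (adjusted p = 0.0428). Hoxb2, which acts in the hindbrain, was at 5.51 and 3.57 RPKM against 0.098 and 0.175, a log2 difference of 4.72 ± 1.30 (adjusted p = 0.0221).

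Hoxd13, the posterior end of its cluster and a limb and urogenital gene, ran the other way, with 0.148 and 0.240 RPKM in ysE (151 reads) and 0.014 and 0.012 in mesoderm (8 reads). It fell by 4.17 on the log2 scale (SE 1.24, adjusted p = 0.0296). Hoxb13, also a posterior end, had 4 and 7 reads in the ysE libraries and 0 in both mesoderm libraries and was not called. Several members moved unequally between the mesoderm libraries, for instance Hoxa10 (1.57 and 0.131 RPKM), Hoxa11 (0.769 and 0.047), Hoxc13 (2.25 and 0.669) and Hoxd10 (0.370 and 0.017), each higher in library A. None of these was called. Leaving out any of the 4 libraries compared leaves a group with 1 library, and fewer members and fewer of all transcripts were then called. The calls did not hold without ysE library A or B, and the Hoxd13 call held in none of these fits. A fit of only these 4 libraries called 17 higher and 2 lower of 30 tested, and it called 30.3% of all transcripts higher and 30% lower.

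**Figure D3:**
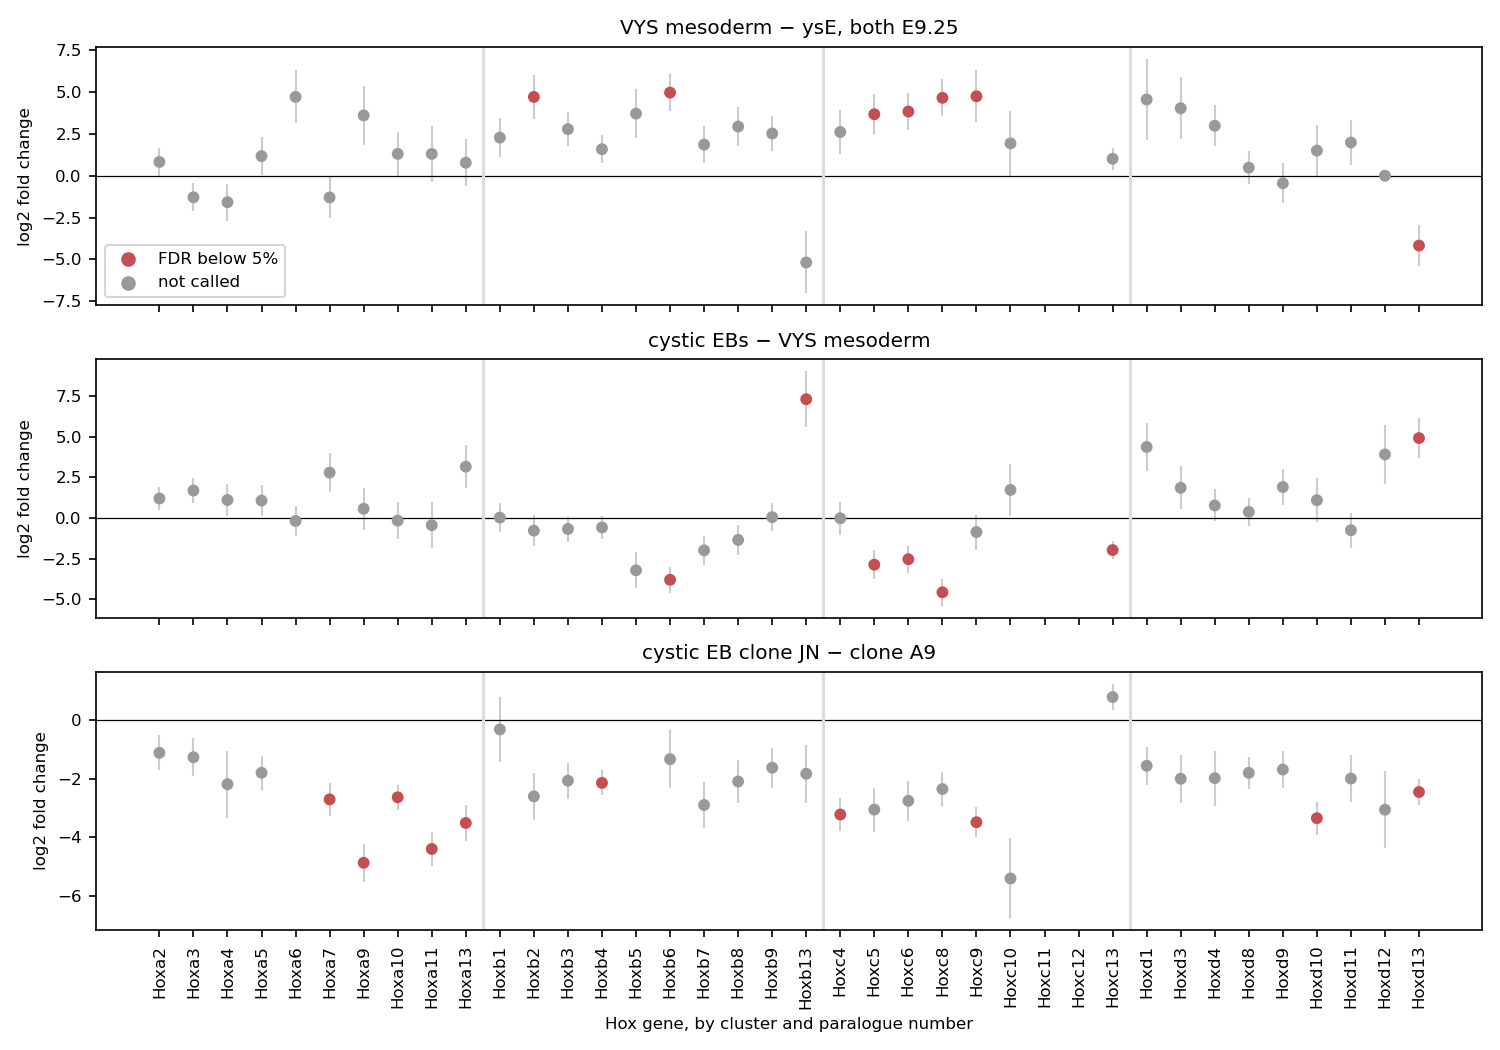
Log2 fold change of the Hox genes tested, drawn for 38 of the 39 members where tested, by cluster and number, in 3 comparisons, with standard errors (bars over 5 not drawn) and genes passing 5% FDR in red. In mesoderm against ysE, Hoxd13 is the gene called lower, and in clone JN against A9, 10 are called lower and 0 higher.

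The other genes of the pathway, taken from lists, were read in the same fit. Of 9 cofactors, 4 were higher in mesoderm than in E9.25 ysE (Pbx3 and Meis2 among them) and Meis3 was lower. Of 13 retinoic acid genes, 4 were higher (Rarb, Rarg, Crabp1, Cyp26b1) and 2 lower (Crabp2, Rdh10). Cdx2, which activates central Hox genes and is also a gut endoderm factor, was at 5.24 and 6.63 RPKM in ysE and 0.435 and 0.745 in mesoderm and fell by 3.64 on the log2 scale (SE 0.64, adjusted p = 0.0025). Of 16 polycomb genes 1 was higher (Phc1) and 2 lower (Ezh1, Cbx7), and of 6 trithorax genes Ash2l was lower. Pdx1, a ParaHox gene, was lower as well, neither Evx gene and none of the 5 non-coding genes tested was called, and of 12 other genes listed beside the clusters (28.1 to 565 kb away where a distance could be computed) Cbx5 was higher and Snx10 lower.

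Cystic EBs were then compared with ysE of the earlier stage, E9.25. Of 37 members tested, 9 were higher in EBs (among them Hoxa2, Hoxa6, Hoxa13, Hoxb2, Hoxd1 and Hoxd3) and 0 lower, beside 27.1% of all transcripts called higher and 23.2% lower. The share of members called higher was thus close to the background. Marker sums moved both ways. Extra-embryonic and smooth muscle mesoderm markers summed to 63.6 to 231 RPKM in EBs against 17.0 and 21.8 in E9.25 ysE, though Pitx1 was lower. Neural markers summed to 6.72 to 13.8 against 0.585 and 0.612, and paraxial mesoderm markers to 2.48 to 12.1 against 0.167 and 0.273. Cardiac markers summed to 2.49 to 48.8 against 0.050 and 0.088, and endothelial and pluripotency markers were higher too. Lower in EBs were yolk sac endoderm markers (116 to 1176 against 9373 and 10593), erythroid markers (11.3 to 127 against 852 and 1020) and hepatoblast markers (4.15 to 10.5 against 88.1 and 99.9). The remaining lists overlapped. The part of these cell types in the Hox result was not tested. Hoxd1, the anterior end of Hoxd, had 0 reads in all 3 ysE and both liver libraries and 107, 25, 37 and 38 reads in EBs d10 A, d15 A, d10 B and d15 B. Measured against a floor of 3 reads over the group, it was at least 50.2-fold higher in EBs than in E9.25 ysE and at least 30.4-fold higher than in liver. Its EB levels were 0.909 and 0.235 RPKM in A9 and 0.173 and 0.165 in JN, and it had 7 and 0 reads in the mesoderm libraries.

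Hoxd3, whose span holds Hoxd4, was at 0.556 and 0.132 RPKM in A9 EBs, 0.057 and 0.092 in JN EBs and 0 and 0.004 in E9.25 ysE, a log2 difference of 5.89 ± 1.82 (adjusted p = 0.0230). Hoxb1, the anterior end of Hoxb, was at 0.137 and 0.017 RPKM in A9, 0.038 and 0.070 in JN and at most 0.013 in ysE and was not called. Hoxa6 was called from 2, 2, 5 and 2 reads in EBs d10 A, d15 A, d10 B and d15 B against 0 in ysE, at least 2.33-fold higher.

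When only clone JN was set against E9.25 ysE, which shares its kit, 3 members were called higher (Hoxd1 among them) and 1 lower (Hoxb7). In that fit 28.2% of all transcripts were called higher and 26.7% lower. Clone A9, made with another kit, gave 20 higher and 0 lower, beside 31.5% and 30.2% of all transcripts. Hoxb7 was at 0.041 and 0.146 RPKM in JN EBs, 0.735 and 0.482 in A9 EBs and 0.218 and 0.334 in E9.25 ysE, so A9 and JN lay on opposite sides of ysE. The 9 calls did not hold without ysE library A or B, which leaves E9.25 ysE 1 library, and fewer of all transcripts were then called. Leaving out EB library d10 A or d15 A left 5 higher, beside 25.0% and 27.9% of all transcripts. Fewer members were also called without mesoderm library A or B.

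Of the 13 retinoic acid genes, 5 were higher in EBs than in E9.25 ysE (Cyp26a1, Crabp1, Rarb, Rarg, Aldh1a3) and Rxra was lower. Cyp26a1, an enzyme that degrades retinoic acid and a known target of it, was at 29.2 and 28.7 RPKM in A9 EBs, 21.8 and 12.2 in JN EBs and at most 0.860 in the other libraries. Its log2 difference from E9.25 ysE was 5.51 ± 0.94 (adjusted p = 0.0013). Crabp1, a retinoic acid binding protein, was at 21.98 and 12.4 RPKM in A9 EBs and 11.7 and 26.0 in JN EBs against 0.283 and 0.346 in E9.25 ysE. Of 9 cofactors, 6 were higher (among them Pbx3, Meis1 and Meis2) and 2 lower (Pbx2, Pknox1), and Evx1, the gene next to Hoxa13, was higher. Of 16 polycomb genes 4 were higher and 3 lower, of 6 trithorax genes 1 was higher (Mll1) and 1 lower (Ash2l), and of 4 ParaHox and Cdx genes tested Gsx2 was higher and Cdx2 and Pdx1 were lower. The antisense RNA 5730457N03Rik had 241, 56, 111 and 80 reads in EBs d10 A, d15 A, d10 B and d15 B and 0 in the 3 ysE libraries. Of the 12 genes listed beside the clusters, 4 were higher (Skap1, Cbx5, Calcoco1, Ttll6) and 2 lower (Atp5g1, Smug1).

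Against VYS mesoderm, cystic EBs showed 2 members higher (Hoxb13, Hoxd13) and 5 lower (Hoxb6, Hoxc5, Hoxc6, Hoxc8, Hoxc13) of 37 tested, with 13.9% of all transcripts called higher and 15.0% lower. The share of members lower was close to the background, and the share higher was below it. Hoxc8 was at 1.19 and 1.58 RPKM in A9 EBs and 0.125 and 0.609 in JN EBs, all below 17.8 and 20.1 in mesoderm, and fell by 4.56 on the log2 scale (SE 0.84, adjusted p = 0.0042). Hoxb6 was at 0.347 and 0.198 RPKM in A9 and 0.039 and 0.250 in JN against 3.55 and 1.72, and fell by 3.80 (SE 0.81, adjusted p = 0.0082). Among the genes that were higher, Hoxd13 was at 0.618 and 0.859 RPKM in A9 EBs and 0.116 and 0.169 in JN EBs, all above mesoderm at 0.014 and 0.012, with a log2 difference of 4.91 ± 1.22 (adjusted p = 0.0159). Hoxb13 had 64 reads in EBs and 0 in mesoderm, at least 17.1-fold higher.

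Among the lists, 5 of 13 retinoic acid genes were higher and 2 lower in EBs than in mesoderm, 7 of 16 polycomb genes were higher and 1 lower, and 1 of 9 cofactors was higher and 2 lower.

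Within the dUTP kit, clone JN against mesoderm gave 13 members lower and 2 higher, the lower ones being Hoxa9, Hoxa11, Hoxb2 to Hoxb7, Hoxc4, Hoxc5, Hoxc6, Hoxc8 and Hoxc9. In that fit, 18.7% of all transcripts were called lower and 16.4% higher. Clone A9 gave 5 lower and 8 higher, beside 25.5% and 22.3% of all transcripts, so its share of members higher was close to the background. The calls higher did not hold without mesoderm library A or B, which leaves mesoderm 1 library. Fewer members were then lower, and fewer of all transcripts were called. Leaving out EB library d15 B left 3 lower, beside 15.3% of all transcripts, and fewer members were also lower without ysE library A or B.

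The 2 EB clones differed across the clusters. In the fit of the 4 EB libraries with day as a second term, 10 of 35 members tested were lower in JN than in A9 (Hoxa7, Hoxa9, Hoxa10, Hoxa11, Hoxa13, Hoxb4, Hoxc4, Hoxc9, Hoxd10, Hoxd13) and 0 higher, while 7.90% of all transcripts were called lower and 10.1% higher. For 31 of the 35, both A9 libraries were above both JN libraries on scaled counts, which held for 28.4% of all transcripts tested. The median log2 difference of the members tested was -2.14 against 0.01 for all transcripts. By class, 7 of 14 tested posterior, 3 of 13 central and 0 of 8 anterior members were called. Hoxc13 was the exception in direction, with 0.227 and 0.345 RPKM in A9 and 0.450 and 0.586 in JN.

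Among the called members, the posterior genes Hoxa9, Hoxa11 and Hoxa13, known from limb and genital tract, had the largest log2 differences. Hoxc10 was at 0.215 and 0.648 RPKM in A9 and 0.018 and 0 in JN and was not called (log2 difference -5.41 ± 1.37, adjusted p = 0.0569). Hoxa9, also a blood progenitor gene, was at 0.362 and 0.384 RPKM in A9 and 0.011 and 0.014 in JN, and JN fell by 4.87 on the log2 scale (SE 0.66, adjusted p = 0.0163). Hoxa11 was at 0.529 and 0.693 RPKM in A9 and 0.019 and 0.043 in JN, lower by a log2 value of -4.40 ± 0.58 (adjusted p = 0.0155). Its antisense partner Hoxa11as was also lower in JN (0.080 and 0.105 RPKM against 0.378 and 0.637), and reads of the pair may not be separated where strand was not used in counting. Hoxa10 was at 1.11 and 1.63 RPKM in A9 and 0.153 and 0.336 in JN, and Hoxa13 at 1.49 and 1.34 against 0.073 and 0.215. Hoxd13 was at 0.618 and 0.859 RPKM against 0.116 and 0.169. The groups did not overlap for Hoxa9, Hoxa10, Hoxa11, Hoxa13 or Hoxd13, while Hoxb1 at the anterior end of Hoxb overlapped. The promoters of 3 posterior genes called lower in JN are shown because they differ in CpG content, with CpGs in capitals (RefSeq, GRCm38.p6). Hoxa10 is at chr6:52240805-52241104 and Hoxa13 at chr6:52260831-52261130, both minus strand, and Hoxd13 at chr2:74667975-74668274, plus strand.
Hoxa10: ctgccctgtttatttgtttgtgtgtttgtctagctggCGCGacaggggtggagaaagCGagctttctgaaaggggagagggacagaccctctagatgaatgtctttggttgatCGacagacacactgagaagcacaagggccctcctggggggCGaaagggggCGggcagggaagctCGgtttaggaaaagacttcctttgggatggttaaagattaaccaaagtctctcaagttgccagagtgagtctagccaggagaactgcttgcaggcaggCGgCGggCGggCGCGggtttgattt
Hoxa13: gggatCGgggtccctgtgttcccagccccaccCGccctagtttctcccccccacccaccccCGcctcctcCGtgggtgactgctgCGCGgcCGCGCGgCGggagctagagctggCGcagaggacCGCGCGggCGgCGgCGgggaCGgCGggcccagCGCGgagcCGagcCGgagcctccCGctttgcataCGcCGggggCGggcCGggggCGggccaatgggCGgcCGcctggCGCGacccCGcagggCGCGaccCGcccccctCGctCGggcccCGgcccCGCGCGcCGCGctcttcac
Hoxd13: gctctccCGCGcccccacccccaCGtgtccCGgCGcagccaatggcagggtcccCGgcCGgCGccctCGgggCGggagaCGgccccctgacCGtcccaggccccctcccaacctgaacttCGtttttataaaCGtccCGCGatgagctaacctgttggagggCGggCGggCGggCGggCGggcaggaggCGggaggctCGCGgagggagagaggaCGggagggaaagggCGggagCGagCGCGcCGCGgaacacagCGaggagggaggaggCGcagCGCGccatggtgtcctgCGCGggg

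Some summed marker levels also differed between the clones, though the genes within a list did not all follow its sum. The hepatoblast sum was mostly Hnf4a (8.93 and 8.36 RPKM in A9, 3.23 and 5.08 in JN). Of the hindgut or definitive endoderm list, Sox17 was higher in A9 (8.03 and 12.4 against 5.37 and 5.70). Foxa2 was lower (6.97 and 7.09 against 7.33 and 7.41), and Pyy overlapped. Endothelial markers summed to 53.1 and 36.4 RPKM in A9 and 13.3 and 25.9 in JN, hepatoblast markers to 10.3 and 10.5 against 4.15 and 6.33, hindgut or definitive endoderm markers to 20.98 and 22.4 against 17.5 and 19.6, and haematopoietic and myeloid markers to 10.3 and 7.371 against 2.18 and 7.365. Erythroid markers were lower in A9 (52.2 and 11.3 RPKM) than in JN (63.3 and 127), as were pluripotency markers (89.5 and 106 against 181 and 116). Yolk sac endoderm markers, at 318 and 1176 against 116 and 503, overlapped, as did the 5 remaining lists. The part of these cell types in the Hox result was not tested. Clone, sex of the clone and library kit cannot be told apart here. Among the lists, the genes lower in JN included Meis1 of the cofactors, Aldh1a2 of the retinoic acid genes, Ezh2 of the polycomb genes and Hoxa11as, and Bmi1 and Phc1 were higher. A fit over all RNA libraries called 13 members lower in JN, 8 of them among the 10 called from the EB libraries alone. Leaving out any EB library from that fit leaves its clone without a replicate. Fewer members and fewer of all transcripts were then called. Each time, most of the 10 were not called, and most of the members called were others.

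Day 15 against day 10 gave 0 called members of 35 tested and 0 transcripts of all 22452 tested by edgeR, so the background was 0% in both directions. No member had an unadjusted p under 0.05, while 2392 transcripts (10.7%) did. DESeq2 also called 0 members, beside 1.14% of all transcripts higher and 0.187% lower. The clones ran opposite ways in sum, as A9 went from 28.9 to 21.5 RPKM and JN from 3.97 to 8.22. This held for the anterior sum (11.8 to 4.35 RPKM in A9, 1.36 to 2.97 in JN) and the central sum (9.73 to 8.025 and 1.31 to 3.28). The posterior sum rose in both clones (7.41 to 9.10 in A9, 1.29 to 1.97 in JN). Hoxb2, an anterior member, was at 7.20 RPKM at d10 and 2.63 at d15 in A9, and 0.427 and 1.30 in JN.

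Fetal liver was set against E9.25 ysE, and 7 of 37 members tested were higher in liver (Hoxa2, Hoxa3, Hoxa5, Hoxa6, Hoxb2, Hoxb3, Hoxb4) and 3 lower (Hoxc13, Hoxd8, Hoxd13), beside 28.3% and 26.7% of all transcripts. The share of members called was thus below the background in both directions. The 7 were paralogues 2 to 6 of Hoxa and Hoxb, that is 4 of 8 anterior and 3 of 15 central members. Hepatoblast markers summed to 424 and 909 RPKM in liver against 88.1 and 99.9 in E9.25 ysE. Endothelial markers summed to 36.8 and 37.8 RPKM in liver against 6.20 and 8.55 in E9.25 ysE. For haematopoietic and myeloid markers it was 38.1 and 44.5 against 3.39 and 4.09. Erythroid, mesothelial, cardiac, neural and paraxial mesoderm markers were higher in liver too. Yolk sac endoderm, hindgut or definitive endoderm and pluripotency markers were lower in liver, and extra-embryonic and smooth muscle mesoderm markers overlapped. The part of these cell types in the Hox result was not tested. Hoxb4, which promotes growth of blood stem cells, was at 3.37 and 1.17 RPKM in liver, 0.209 and 0.328 in E9.25 ysE and 0.316 in E12.5 ysE, a log2 difference of 2.97 ± 0.89 from E9.25 ysE (adjusted p = 0.0179). Hoxb2 was at 4.58 and 0.861 RPKM in liver and higher by a log2 value of 4.20 ± 1.28 (adjusted p = 0.0193). Hoxa6 had 30 and 6 reads in liver and 0 in ysE, at least 18.9-fold higher. Hoxa3 spans Hoxa4, Hoxa5 and Hoxa6, and Hoxb3 spans Hoxb4, so reads of these genes may be shared in counting. The Hoxb4 promoter is shown as that of a gene whose peak in VYS scored above the median of all peaks (RefSeq, GRCm38.p6, plus strand, chr11:96318017-96318316, CpGs in capitals).
Hoxb4: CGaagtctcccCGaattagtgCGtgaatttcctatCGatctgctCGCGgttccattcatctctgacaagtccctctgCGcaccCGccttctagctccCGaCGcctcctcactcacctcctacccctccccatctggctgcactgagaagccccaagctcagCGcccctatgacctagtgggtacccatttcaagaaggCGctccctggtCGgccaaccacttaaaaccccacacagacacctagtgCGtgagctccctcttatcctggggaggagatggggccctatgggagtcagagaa

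Of the 9 cofactors 5 were higher and 3 lower in liver than in E9.25 ysE, of 13 retinoic acid genes 6 were higher and 2 lower, of 16 polycomb genes 4 were higher and 4 lower, and of 6 trithorax genes 3 were higher and 1 lower.

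The members of paralogue group 13 had at most 4 reads in a liver library, while Hoxa9, also posterior, was at 0.281 and 0.138 RPKM in liver and 0.007 in both E9.25 ysE libraries. Hoxc13, the posterior end of Hoxc and a hair and nail gene, had 0 reads in both liver libraries but 123, 313 and 24 in the ysE libraries, 627 and 218 for mesoderm and 35 to 177 in EBs. It was at least 60.9-fold lower in liver than in E9.25 ysE, and at least 157-fold lower than in mesoderm. Hoxd13 had 4 and 0 reads in liver against 44 and 107 in E9.25 ysE and fell by 4.43 on the log2 scale (SE 1.32, adjusted p = 0.0179). Hoxa13 had 1 and 0 reads and Hoxb13 had 0 and 0.

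The liver libraries were far apart, since library A was above library B in RPKM for 32 of the 34 members with reads in either and below it for 2, while it was above for 43.3% of all transcripts with reads in either. Hoxb2, for instance, was at 4.58 and 0.861 RPKM, and Hoxa5 at 0.775 and 0.119. Cardiac markers summed to 8.60 and 2.31 RPKM in A and B, neural markers to 12.4 and 5.85 and paraxial mesoderm markers to 3.08 and 2.24. The neural sum was nearly all Nes (12.4 and 5.82), with Sox1, Pax6, Neurog2 and Olig2 at most 0.031. In the paraxial list Meox1 was higher in A (1.19 and 0.35), while Tbx6 was not (1.82 and 1.88). Extra-embryonic and smooth muscle mesoderm markers summed to 26.5 and 14.2 RPKM and pluripotency markers to 1.47 and 0.021. The other way ran hepatoblast markers, at 424 and 909, and yolk sac endoderm markers, at 1621 and 2834. The remaining lists were closer, and the part of these cell types in the Hox levels was not tested. Leaving out a liver or E9.25 ysE library leaves its group 1 library, and fewer of all transcripts were then called. Most members called higher in liver than in E9.25 ysE lost the call without liver library A, ysE library A or ysE library B. More members were higher without liver library B. Leaving out EB library d10 B gave 11 higher, beside 29.5% of all transcripts.

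Cystic EBs against liver gave 7 members higher (among them Hoxa13, Hoxb13, Hoxc13, Hoxd8 and Hoxd13) and 3 lower (Hoxa3, Hoxa6, Hoxb4) of 37 tested, with 24.6% of all transcripts called higher and 20.9% lower. The share of members called was below the background in both directions. The higher genes included all 4 paralogues of group 13. Hoxc13 was at least 43.0-fold and Hoxb13 at least 10.0-fold higher in EBs, and Hoxd8 was higher by a log2 value of 4.42 ± 1.13 (adjusted p = 0.0113). Hoxa6 fell by 3.004 on the log2 scale (SE 0.83, adjusted p = 0.0182) and Hoxb4 by 1.96 (SE 0.69, adjusted p = 0.0415). With clone A9 alone, which shares the kit with liver, 15 members were higher and 0 lower, beside 25.8% and 23.5% of all transcripts. With clone JN 7 were higher and 13 lower, beside 31.6% and 26.3%. The log2 differences of Hoxa6 from liver were -2.89 with A9 (adjusted p = 0.0644) and -3.10 with JN (adjusted p = 0.0354). For Hoxb4 they were -1.26 with A9 (adjusted p = 0.0635) and -3.35 with JN (adjusted p = 0.00065), and for Hoxa3 -1.33 (adjusted p = 0.132) and -2.59 (adjusted p = 0.0108). Leaving out liver library A or B leaves liver 1 library, and fewer members and fewer of all transcripts were then called. The calls lower did not hold without liver library A. Leaving out EB library d10 B or d15 B left 1 lower, beside 20.7% and 19.0% of all transcripts. Fewer members were also lower without a mesoderm or E9.25 ysE library.

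Mesoderm against liver gave 5 members higher (among them Hoxc8, Hoxc13 and Hoxd8) and 2 lower (Hoxa2, Hoxa3) of 37 tested, with 21.0% and 17.8% of all transcripts. Both shares of members were below the background. Hoxc8 was at 0.558 and 0.10 RPKM in liver, and its log2 difference was 5.63 ± 1.17 (adjusted p = 0.0056). Hoxa3 was at 0.048 and 0.021 RPKM in mesoderm against 0.511 and 0.175 in liver and fell by 3.54 (SE 0.87, adjusted p = 0.0117), and Hoxa2 was at 0.114 and 0.169 against 1.002 and 0.249 and fell by 2.35 (SE 0.82, adjusted p = 0.0463). Leaving out a mesoderm or liver library leaves its group 1 library, and fewer members and fewer of all transcripts were then called. The calls lower did not hold without mesoderm library B or liver library A. Without EB library d15 B 1 was lower, beside 18.1% of all transcripts, and without d10 B 4 were, beside 19.5%. Fewer members were also called without ysE library A or B. These comparisons and the ones against E9.25 ysE share libraries. Evx1 was higher in mesoderm than in liver, and of the non-coding RNAs 2700086A05Rik was lower, with 2 and 0 reads against 39 and 3.

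In the whole E12.5 VYS, which holds both layers, H3K4me3 peaks covered 17.8% of the Hoxc cluster, 11.4% of Hoxb, 10.1% of Hoxa and 4.71% of Hoxd. Without the 74.7 kb gap between Hoxb13 and Hoxb9, which held no peak, the Hoxb share was 19.9%. A peak lay within 1 kb of the outermost annotated start of 25 of the 39 members, 8 of 11 Hoxa, 7 of 10 Hoxb, 7 of 9 Hoxc and 3 of 9 Hoxd genes. The 2 highest-scoring peaks of the clusters lay over the starts of Hoxc8 (3.12 kb long) and Hoxc6 (3.85 kb). Both had a MACS score of 3100 (the score is -10 times the log10 of the p-value). That score ranked at 87.0% of all peaks, ties averaged, and the highest in the genome was 3233. Other peaks of the clusters scored 2388 at Hoxb2 (rank 68.2% of all peaks), 2357 and 2207 elsewhere in Hoxc and 1822 at Hoxb4 (rank 62.1%). The median of all 22343 peaks was 863. A peak at Hoxa5 scored 875, and the peaks of Hoxd genes scored at most 495 (Hoxd9).

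As a description of level by peak, the median was 0.408 RPKM in mesoderm for the 25 with a peak and 0.131 for the 14 without. In E9.25 ysE it was 0.067 and 0.031. Both tissues are from E9.25, while the peaks are from E12.5. In E12.5 ysE the medians were 0.076 and 0.006. The order was the same outside the VYS, at 0.1025 and 0.0605 in liver and 0.262 and 0.236 in EBs. Among those without were Hoxd1, Hoxd10, Hoxd11, Hoxd12 and Hoxd13, while Hoxd8 had 2 peaks, with scores of 156 across the start and 418 just downstream. Hoxc4 had none at its outermost start, but a peak of score 702 lay at its downstream start. There is 1 ChIP library, so no spread can be given, and the layer that carries a peak cannot be told apart.

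**Figure D4:**
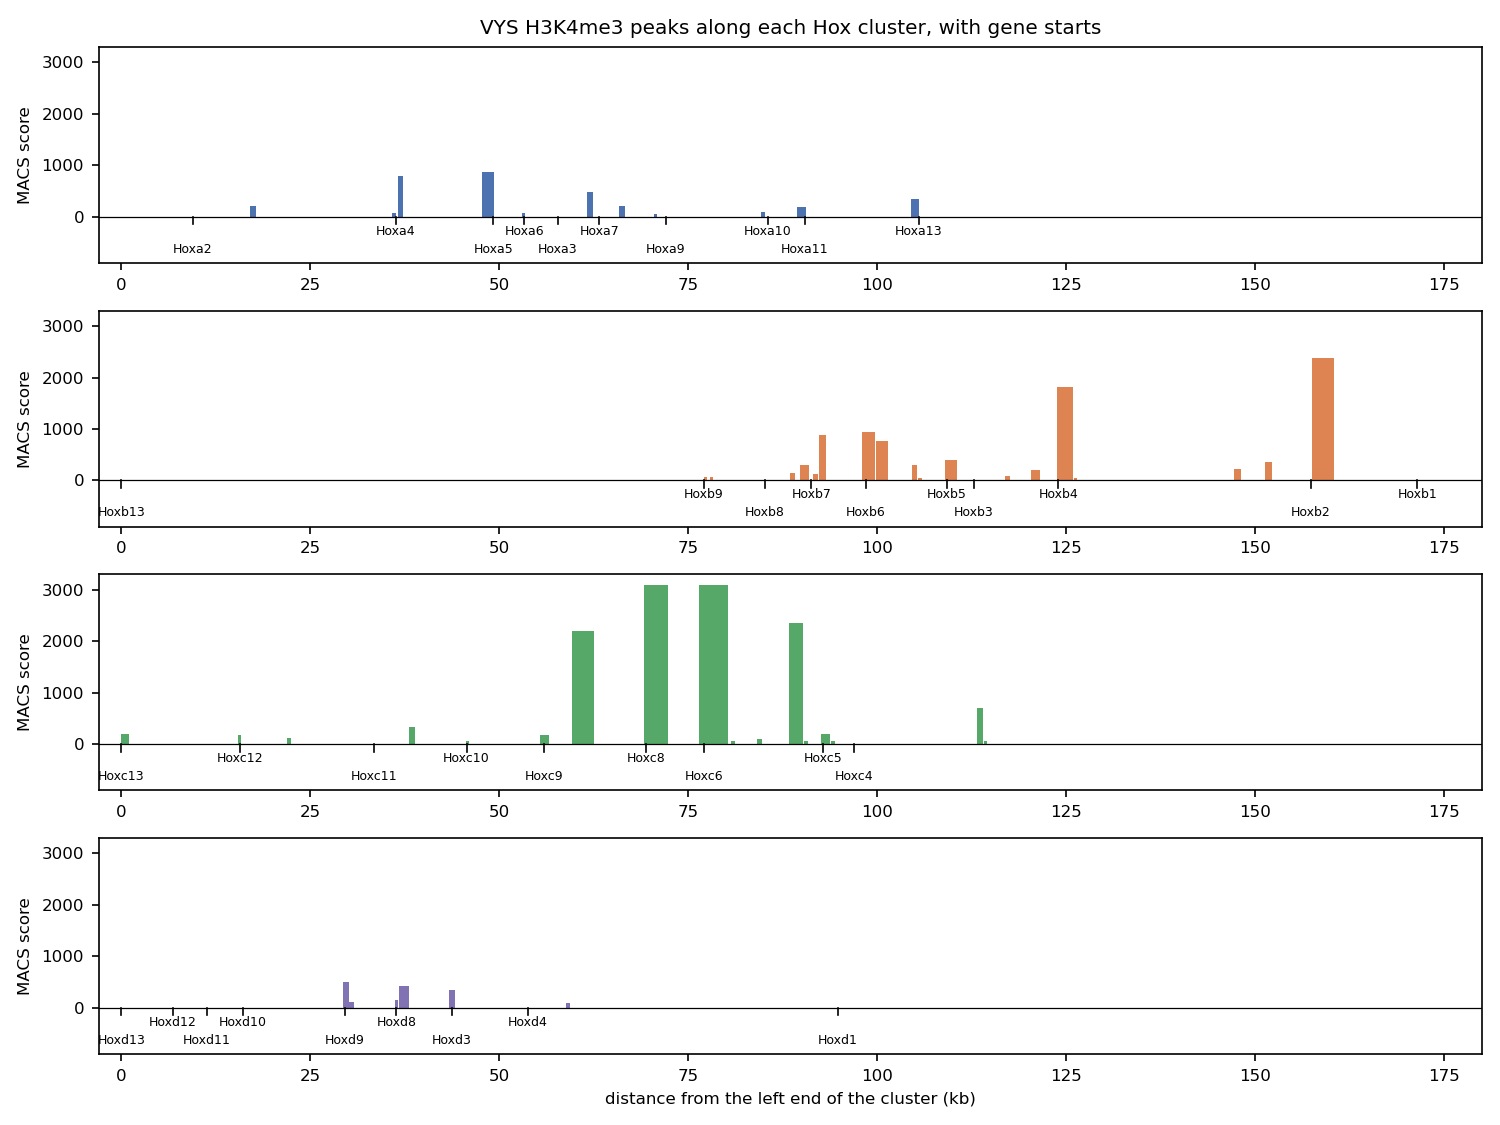
H3K4me3 peaks of the E12.5 VYS along each cluster (Hoxa, Hoxb, Hoxc, Hoxd from top), with height as MACS score, width as peak length and ticks at the starts of 38 of the 39 genes, against distance from the left end in kb, leaving out peaks within 5 kb of the remaining start. The tallest bars lie at Hoxc8 and Hoxc6 (3100), and no Hoxd peak passes 495.

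Of the 39 members, 22 had a promoter in the RefSeq table, with 24 promoters in all. Their median was 14.5 CpGs in 300 bases against 7 over all 32851 promoters, and the range was 4 to 45. Of the 5 printed, Hoxa13 had 45 CpGs, Hoxd13 37, Hoxb4 14, Hoxa10 12 and Hoxd8 6. A further Hoxa10 promoter, at chr6:52234890-52235189 and not printed, had 21. At least 45 CpGs were found in 1.93% of all promoters, and at least 6 in 56.4%. Hoxd13 with 37 had no peak in VYS, while Hoxd8 with 6 had one across the start. The letters TGATNNAT, a pattern bound by Pbx and Hox together, were found on either strand in 4 of the 24 promoters (16.7%) and in 8.85% of all promoters, and the GC box GGGCGG in 10 (41.7%) against 35.7%. Among the printed promoters TGATNNAT was in none, and GGGCGG occurred 7 times in Hoxd13, 6 times in Hoxa13 and 2 times in Hoxa10.

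CpG methylation was read from sparse WGBS, with a mean of 1.80 to 2.21 reads per CpG call and 142 to 1439 reads per cluster and library, so each value carries a Wilson 95% interval that covers counting error only. Over all calls, cystic EBs had higher values than ysE in each cluster. Hoxd was at 63.7% (59.7 to 67.6) and 61.5% (57.1 to 65.7) methylated reads in the CxF and FxC EBs, and at 47.6% (43.8 to 51.4) and 45.9% (40.5 to 51.3) in ysE. Hoxc was at 59.6% (55.8 to 63.2) and 57.7% (53.7 to 61.5) in EBs and 50.9% (47.4 to 54.3) and 43.9% (39.3 to 48.6) in ysE. Hoxa was at 56.3% and 58.2% in EBs and 45.2% and 49.1% in ysE, and Hoxb at 71.2% and 64.7% in EBs and 62.2% and 56.4% in ysE. In all 4 clusters both EB libraries were thus above both ysE libraries, a pattern that 2 against 2 libraries cannot test below p = 0.333 (exact permutation test, two-sided). With only calls of at least 3 reads this held for Hoxd alone, since ysE FxC was at 56.3% and EB CxF at 55.9% for Hoxa, ysE CxF at 71.1% and the EBs at 70.9% and 68.9% for Hoxb, and ysE CxF at 53.5% and EB FxC at 51.6% for Hoxc. Without the gap between Hoxb13 and Hoxb9, ysE CxF was at 64.3% and EB FxC at 60.1%.

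The same order held for the chromosomes as a whole, which stood at 81.5% to 87.4% in EBs and 59.8% to 69.9% in ysE. In EBs each cluster was below its chromosome and below the 100 kb on either side, as for Hoxa, where the flanks were at 87.5% and 83.4%. In ysE the drop was smaller, with Hoxa flanks at 68.8% and 60.1%, and for Hoxb the flanks (62.9% and 57.8%) and the cluster (62.2% and 56.4%) had overlapping ranges. Liver had no reads on the Hoxc chromosome in the files used here. Liver Hoxd was at 35.3% (30.1 to 40.8) and 47.9% (44.4 to 51.4) against a chromosome value of 79.6% in both libraries, and liver Hoxb was at 56.9% and 58.8%. With calls of at least 3 reads liver Hoxd was at 28% and 63.3%, and as a mean over calls at 36.5% and 33.7%. Liver Hoxa was at 62.7% (54.5 to 70.2) in CxF, from 142 reads, and 24.1% (20.4 to 28.3) in FxC, from 456 reads, so the intervals of the 2 crosses did not overlap. The whole chromosome stood apart in the CxF liver library too, at 88.4% from 207307 reads against 79.3% from 742740 reads in FxC, while the Hoxb and Hoxd chromosomes of the CxF library were at 76.8% and 79.6%.

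**Figure D5:**
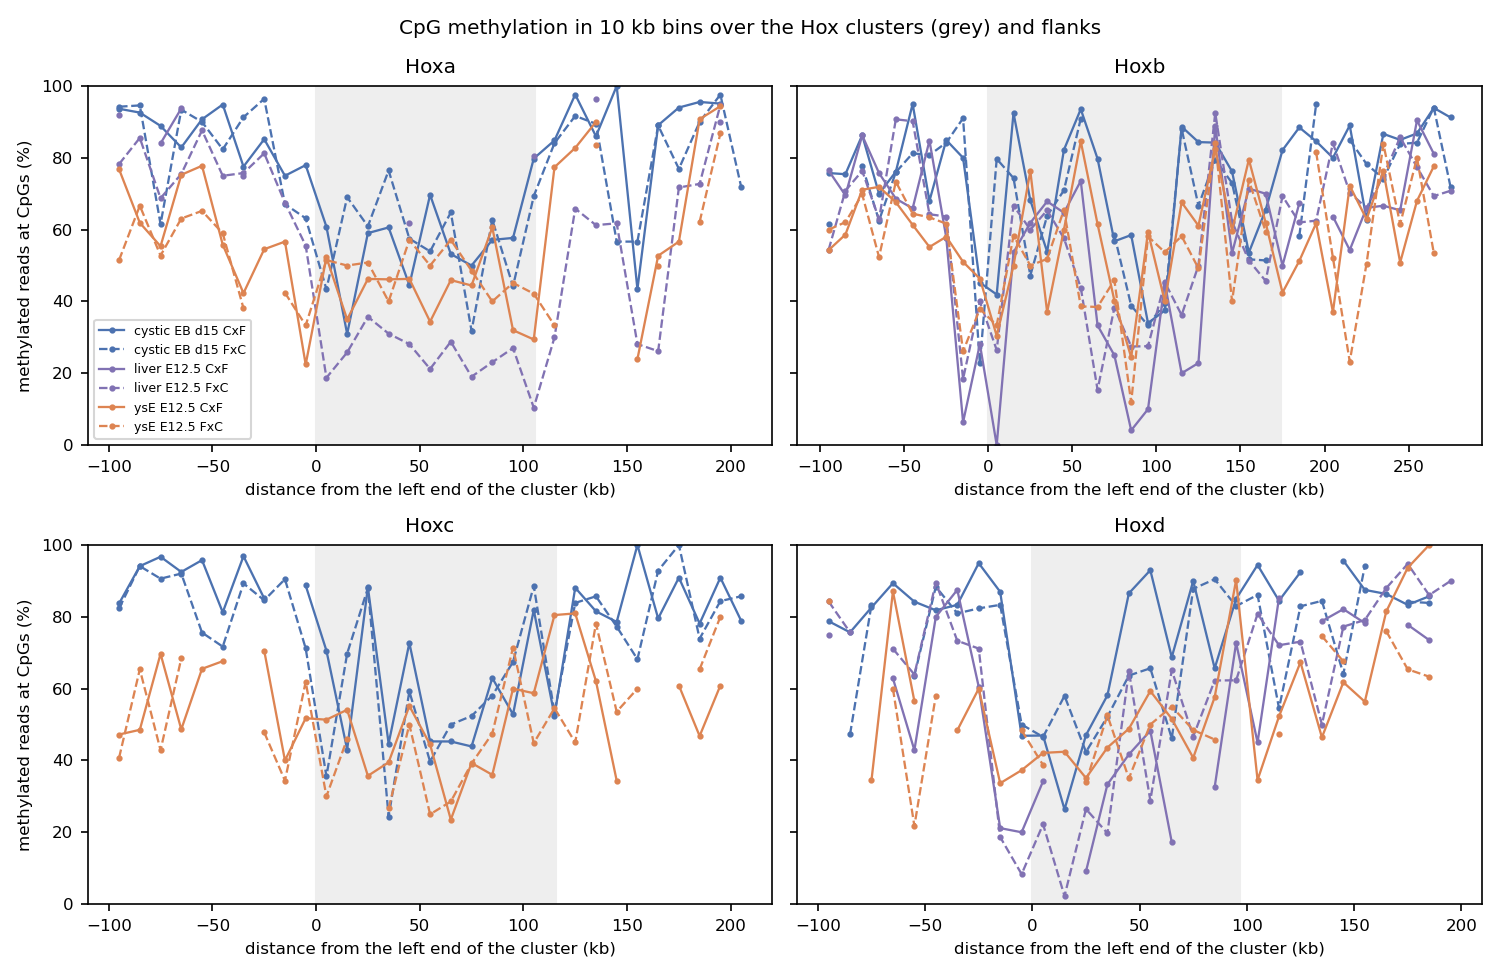
Percent of methylated reads at CpGs in 10 kb bins with at least 20 reads, over each cluster (grey) and 100 kb on either side, for each WGBS library (CxF solid, FxC dashed). Levels dip within the grey area in EBs, and liver is absent from Hoxc.

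Inside the H3K4me3 peaks of the VYS, methylation was lower over Hoxa, at 14.4% and 18.3% in ysE and 16.7% and 14.3% in EBs, from 71 to 111 reads each, while liver CxF was at 80.5% (41 reads) and liver FxC at 5.6% (72 reads). Over Hoxc the peaks stood at 37.1% and 53.2% in ysE (105 and 62 reads) and 24.7% and 40.2% in EBs (182 and 117 reads), and with peak CpGs left out ysE was at 53.0% and 42.3%, so ysE FxC was higher inside the peaks. Over Hoxd the peaks held 11 to 39 reads per library, and ysE was at 33.3% and 45.5% inside them and 48.5% and 45.9% with them left out. Over Hoxb the peaks stood at 49.6% and 37.3% in ysE, 41.4% and 25.6% in EBs and 8.2% and 8.8% in liver. Single promoters, taken as 1 kb on either side of the start and at least 5 reads, were too thinly covered for comparison. Their median was 41.7% and 34.1% in ysE over 39 and 26 promoters, 37.9% and 37.5% in EBs over 33 each, and 25.0% and 21.9% in liver over 13 and 22. Hoxb2 was at 100% of 14 reads (interval 78.5 to 100) and 92.3% of 13 reads (66.7 to 98.6) in ysE. In liver it was at 16.7% of 6 (3.0 to 56.4) and 31.8% of 22 reads (16.4 to 52.7). EBs were at 25.0% of 8 reads and 50% of 4 reads, the latter below the minimum. Around the Hoxd8 start the values were 69.2% of 13 and 34.8% of 23 reads in ysE and 25.0% of 12 and 39.1% of 23 reads in EBs, so the tissues overlapped.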

How the data were processed

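RNA was sequenced in 11 libraries, methylation in 6 WGBS libraries and H3K4me3 in 1 VYS pool. Per the labels, the authors aligned reads with GSNAP to mm10 and deposited read counts and RPKM values per RefSeq transcript. CpG calls from BisSNP at low-coverage settings were deposited by the authors as a percent of methylated reads with the read count per call, and H3K4me3 peaks from MACS (1.4.2) were deposited with a score. Whether counting used strand is not given in the sources used here, so antisense and overlapping genes (Hoxa3 with Hoxa4 to Hoxa6, Hoxb3 with Hoxb4, Hoxd3 with Hoxd4, Hoxd10 with Hoxd11) may share reads. A deposited table of repeats and the exon counts were not used.

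Counts were tested with edgeR (4.0.16, limma 3.58.1, R 4.3.3) by the quasi-likelihood test with TMM scaling, after a filter on low counts that kept 24858 of 30455 transcripts over all groups and 22452 over the 4 EB libraries. P-values were adjusted by Benjamini-Hochberg over all transcripts tested, and a gene was called at a 5% FDR, or 1% for EBs against E12.5 ysE. The SE is the size of the log2 fold change over the square root of the F statistic. Tissue comparisons came from 1 fit of all RNA libraries grouped by tissue and stage, with no term for clone, day or kit. The 4 EB libraries counted as replicates there, as in the study, and single-clone fits took the days of a clone as replicates. Libraries are pooled litters or cultures, so p-values measure only the spread between these samples. Days of a clone share a line and are not independent, so p-values of EB comparisons with tissues may be too small. A fold against a group with 0 reads is a lower bound from 3 reads over the group, the smaller of the values on raw and on TMM-scaled totals. Percent of methylated reads was pooled over CpG reads, with Wilson 95% intervals. Gene starts are the outermost annotated ones. On simulated counts the fit was tested before use. DESeq2 (1.42.0) was an alternative, with others on scaling, filter, samples, clone and thresholds.

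Values in every library were given by rule for the 3 members of each cluster with the highest mean over the 5 groups, for the 2 called members with the largest change in each direction whose libraries did not overlap, for members at 1 RPKM or more in ysE, and for the paralogue groups 1 and 13. Promoters were to be those of the highest member per cluster, and those of Hoxb4, Hoxa13 and Hoxd13, like other genes given with values, were chosen after their values were seen. The members and all gene lists were chosen with earlier results of these data known. Calca, listed beside the clusters by mistake, lies on another chromosome and was left out. Some genes that these rules named are not reported here.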

Additional observations from a re-analysis of the deposited data

Results flagged for a closer look

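Among the 39 members, each looked at over the 4 cystic EB libraries, 3 had a library far from the rest, and chance alone places about 1 in 20 groups there. Hoxd1 was at 0.909 RPKM in EB library d10 A and between 0.165 and 0.235 in the others. Hoxd3 was at 0.556 RPKM in the same library and between 0.057 and 0.132 in the others. Hoxc12 was at 0 RPKM in d10 B and between 0.038 and 0.041 in the others, on 0 to 4 reads per library.

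The summed Hox level ran opposite ways from d10 to d15 in the EB clones, by -7.453 RPKM in A9 and by 4.253 RPKM in JN. With 1 library per clone and day, this difference was not tested. Of the 39 members, 23 were lower at d15 in A9, 33 were higher at d15 in JN and 22 did both.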

How the results depend on the processing

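For each Hox gene in the comparisons that called it, with uncalled Hoxd8 (EBs and E9.25 ysE against E12.5 ysE) and Hoxc8 (JN against A9), 1056 checks of the log2 fold change under the alternatives were made. Of these, 825 kept direction and side of the threshold, 223 kept the direction but lost the call, 8 gained one and 0 reversed. Members in comparisons that did not call them were otherwise not checked this way, and the counts that follow include their gains. Leaving out libraries accounted for 196 of the 223. Choosing the transcript row by RPKM picked rows with the same summed levels, so that alternative could not change them. With DESeq2, and with the share of all transcripts it called the same way beside each, the members called higher were 12 (16.7%) for mesoderm against E9.25 ysE with 2 lower (13.1%), 15 (26.2%) for EBs against E9.25 ysE, 5 (16.6%) for EBs against mesoderm, 8 (17.9%) for mesoderm against liver with 5 lower (19.1%), 13 (27.1%) for liver against E9.25 ysE, 2 (14.9%) for EBs against E12.5 ysE and 1 (6.72%) for E12.5 against E9.25 ysE, and 18 (9.79%) were lower in JN than in A9. When the fit held only the 2 groups at issue, mesoderm against E9.25 ysE had 17 higher (30.3%) and 2 lower (30%), EBs against mesoderm 3 lower (11%), EBs against liver 0 lower (18%), mesoderm against liver 4 lower (28.2%), liver against E9.25 ysE 12 higher (36.6%) and 5 lower (36.2%), and E12.5 against E9.25 ysE 4 higher (25.1%) and 2 lower (25.2%).

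At a 1% FDR, mesoderm against E9.25 ysE kept a count of 1 higher and 0 lower, EBs against E9.25 ysE 0 higher, EBs against mesoderm 0 higher and 2 lower, EBs against liver 1 higher and 0 lower, mesoderm against liver 2 higher and 0 lower, liver against E9.25 ysE 1 higher and 1 lower, and JN against A9 0 lower. At 5% FDR, EBs against E12.5 ysE had 1 higher. Shares of all transcripts were not computed at these changed thresholds, so these counts have no background beside them. Within the same kit, EBs against E9.25 ysE had 3 higher and 1 lower, against mesoderm 13 lower and against liver 15 higher and 0 lower. With the other clone, a setting chosen after seeing the data, these were 20 higher, 8 higher and, against liver, 13 lower. The letters A and B name samples and mark the clone in EBs, and deviations of same-lettered samples correlated between -0.131 and 0.191 across tissues (0.763 between EB days, which share clones). With the replicate letter as a block, mesoderm against E9.25 ysE had 11 higher (18.3%), mesoderm against liver 9 higher (23.3%), and liver against E9.25 ysE 11 higher (29.7%) and 5 lower (28.5%).

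Each EB library was left out in turn, and the share of all transcripts called the same way stands in brackets. Mesoderm against E9.25 ysE had 7 to 9 higher (16.7% to 18.6%) and 1 to 2 lower (13.6% to 15.5%). EBs against E9.25 ysE had 5 to 11 higher (25% to 27.9%). EBs against mesoderm had 2 to 3 higher (12% to 15.3%) and 3 to 5 lower (12.4% to 16.3%). EBs against liver had 6 to 8 higher (22.3% to 26.4%) and 1 to 4 lower (19% to 22.2%). Mesoderm against liver had 4 to 6 higher (21.3% to 22.8%) and 1 to 4 lower (17.7% to 20.6%). Liver against E9.25 ysE had 7 to 11 higher (27.8% to 30.9%) and 3 to 4 lower (27.2% to 28.1%). For JN against A9, this leaves a clone with 1 library, and most of its calls were lost. The number of members at 1 RPKM or more was 5 to 11 in mesoderm, 1 to 4 in liver and 2 to 5 in EBs with a library left out. At a minimum of 0.5 RPKM it was 3 in E9.25 ysE, 4 in liver and 10 in EBs, and at 2 RPKM it was 3 in mesoderm and 1 in EBs.

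Mean methylation moved with calls of at least 3 reads to 55.5% (EB Hoxc), 64.9% (EB Hoxd), 72.3% (liver Hoxb), 52.2% (ysE Hoxa), 67.4% (ysE Hoxb) and 41.2% (ysE Hoxd). Without CpGs in H3K4me3 peaks it was 63.2% (EB Hoxa), 67.2% (EB Hoxc), 63.0% (liver Hoxb) and 52.3% (ysE Hoxa), as a mean over calls 60.0% (EB Hoxc), 46.4% (liver Hoxb), 53.8% (ysE Hoxb) and 49.0% (ysE Hoxd), and with the region widened by 5 kb 59.4% (EB Hoxa). With 1 cross left out, the widest range was 24.1% to 62.7%, for liver Hoxa, and liver Hoxd ranged from 35.3% to 47.9%. Within the upper 50% of peaks by score, H3K4me3 covered 3.04% of Hoxa, 4.53% of Hoxb, 10.2% of Hoxc and 0% of Hoxd, with 2, 4, 2 and 0 genes marked. With all peaks and without the gap, Hoxb stood at 19.9%. A peak over the start itself was found for 5 Hoxa and 3 Hoxb genes. The cause of these changes was not tested. Low reads per CpG and levels under 1 RPKM limit the precision of most members.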
